A study of Mus musculus with 12 samples.

Results

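The genes described here are 41 genes of protein folding, quality control and stress signalling in the endoplasmic reticulum (ER). They were taken by name from a list chosen with earlier results of these data known. By symbol, all were found among the 55385 gene identifiers of the count files. All 41 were among the 15090 genes abundant enough to be tested. They fall into 17 ER chaperones and folding enzymes, 10 genes of ER-associated degradation (ERAD), 4 stress sensors and their transcription factors, the 7 genes of the ATF4 branch (Atf4 and targets of PERK and ATF4) and 3 translocon genes. They were measured by RNA sequencing of primary mouse hepatocytes, the secretory parenchymal cells of the liver, in 12 libraries from 3 mice. Cells of every mouse were plated in Williams' E medium with serum, glutamine, dexamethasone and an insulin, transferrin and selenium supplement, and received small interfering RNA (siRNA) for 48 h. The 4 groups of 3 libraries are siCon, which received control siRNA, siHnf4a and siCebpa, named for the transcript targeted, and the double knockdown, in which both transcripts were targeted at once. HNF4A and C/EBPα are transcription factors of hepatocyte identity, and the series title places the question on how albumin transcription is kept stable. The replicate number names the mouse, so each mouse gave 1 library to each group. The labels used here give no strain, age, sex or siRNA sequence, and each target is represented by 1 siRNA label in plated cells outside the liver.

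Hepatocytes pass large amounts of plasma protein through the ER. When unfolded protein accumulates there, IRE1 (Ern1) splices the Xbp1 transcript, ATF6 is released from the membrane by proteolysis, and PERK (Eif2ak3) phosphorylates eIF2α, which favours translation of ATF4. XBP1 and ATF6 are known for raising chaperone and ERAD genes, and ATF4 for raising genes of amino acid supply, redox balance and the stress factor CHOP (Ddit3). The counts are per gene, so the spliced and unspliced forms of Xbp1, and the activity of ATF6 or PERK, were not measured.

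Some promoters of these genes carry elements by which the branches are usually told apart. The windows below are shown because their genes rose in every siRNA group or, for Canx, Asns and Trib3, passed in none. RefSeq promoter windows (GRCm38.p6, 250 bases before to 50 after the annotated start) matched 36 of the 41 genes. Capitals mark the fixed letters of a match. The first 4 hold the ER stress response element ERSE, the next its shorter form ERSE-II, and the last 2 the core of the amino acid response element to which ATF4 and C/EBP partners bind. The genomic positions are chr2:34772020-34772049 (+) for Hspa5, chr10:75893237-75893266 (+) for Derl3, chr15:88819515-88819544 (+) for Creld2, chr11:50325794-50325823 (-) for Canx, chr8:94386368-94386397 (+) for Herpud1, chr6:7693214-7693243 (-) for Asns and chr2:152344028-152344057 (-) for Trib3. Each is written 5′ to 3′ on the strand of the gene, so a match on the other strand appears as its complement.
Hspa5, ERSE: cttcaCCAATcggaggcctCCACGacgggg
Derl3, ERSE on the other strand: tctacCGTGGgacttccccATTGGctagcc
Creld2, ERSE on the other strand: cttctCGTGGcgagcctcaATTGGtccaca
Canx, ERSE: attgaCCAATcaccacgctCCACGaagaat
Herpud1, ERSE-II: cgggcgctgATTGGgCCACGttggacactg
Asns, amino acid response element core: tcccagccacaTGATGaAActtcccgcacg
Trib3, amino acid response element core on the other strand: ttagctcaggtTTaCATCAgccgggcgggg

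Of the 36 matched genes, 9 held ERSE (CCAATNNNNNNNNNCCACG, N any base, both strands searched), which is 25%, against 0.137% of all 27025 genes with windows. They were the chaperone and folding genes Hspa5, Hsp90b1 (with 2 matches), Pdia6, Creld2, Calr, Canx and Dnajc3 and the ERAD genes Derl3 and Syvn1. ERSE-II (ATTGGNCCACG) stood in Herpud1 and Dnajb11, against 12 genes in all (0.0444%). The UPRE core TGACGTGG was in 0 of the 36 and in 0.714% of all genes with windows. The amino acid response element core TGATGNAA stood in 5 of the 36, against 4.51% of all genes with windows. Of the 5, 4 were genes of the ATF4 branch (Atf3, Chac1, Trib3 and Asns), and the other was Herpud1. The CCAAT box stood in 26 of the 36 genes, against 41.1% of all genes with windows. It is also part of ERSE and, in reverse, of ERSE-II. A match is a string of letters in the window and not a measured binding site. Manf, Hyou1, Derl1, Atf6 and Sec61a1 had no entry in the promoter table.

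**Figure D1:**
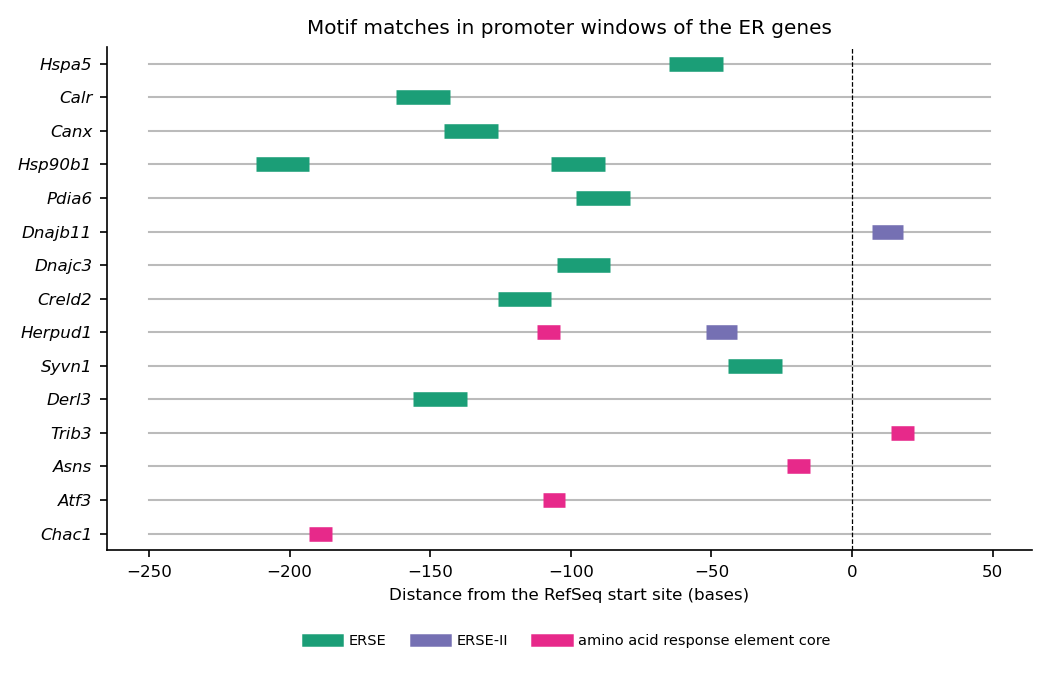
Matches of ERSE, ERSE-II and the amino acid response element core in the promoter windows of the 15 genes with at least 1 of them, by distance from the RefSeq start in bases (dashed line at 0). ERSE matches lie between 212 and 26 bases before the start in chaperone and ERAD genes, and the amino acid response element core in 4 genes of the ATF4 branch and Herpud1.

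Libraries held 22453445 to 25008195 estimated counts, of which the 41 genes took 0.571% to 0.615% in siCon and up to 0.815% in the double knockdown. The siRNAs lowered their targets. On the log2 scale against siCon, Hnf4a had -2.08 ± 0.28 in siHnf4a and -2.68 ± 0.29 in the double knockdown, and Cebpa had -2.68 ± 0.13 in siCebpa and -1.03 ± 0.12 in the double knockdown. Cebpa was thus higher in the double knockdown than in siCebpa (log2 difference 1.65 ± 0.13). Hepatocyte markers were abundant in every library. The summed level of the 14, in TPM (transcript abundance scaled to a fixed total per library), was 33820 to 40960 for siCon. It was 26450 to 29030 TPM for siHnf4a, 28650 to 32310 for siCebpa and 18830 to 21850 for the double knockdown. Gene by gene, the median log2 fold change of the 14 was 0.38, -0.21 and -0.30 with siHnf4a, siCebpa and both. Of the 14, 3, 0 and 1 were higher and 1, 0 and 2 lower. Over all tested genes 7.24%, 2.94% and 6.9% were higher and 7.29%, 1.72% and 7.13% lower. With mouse as a block in the fit, 7, 0 and 2 of the 14 were higher and 1, 4 and 4 lower. With that block 14.5%, 8.73% and 13.8% of all genes were higher and 15.5%, 8.11% and 15.6% lower. The summed Kupffer cell and macrophage markers ranged over 117 to 353 TPM for siCon, 132 to 560 for siHnf4a, 71.4 to 449 for siCebpa and 129.6 to 489 for the double knockdown, and 0 of the 11 tested passed in any comparison with siCon. Their median log2 fold change was -1.01, -1.23 and -1.25, with 10 of 11 below 0 each time, and with mouse as a block in the fit 3, 3 and 6 were lower with siHnf4a, siCebpa and both. Of 5 tested cholangiocyte markers 2, 0 and 2 were lower, and 4, 3 and 4 with the block. Their part in the results was not tested. In bulk RNA, fewer cells of a type and less RNA per cell cannot be told apart.

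In siCon the 41 genes spanned 1.77 ± 0.46 TPM (SD, n = 3) for Derl3 to 440 ± 18.7 TPM for Hspa5, which encodes BiP, the central ER chaperone. P4hb (protein disulfide isomerase, 391 ± 48.4 TPM), Calr (the lectin chaperone calreticulin, 357 ± 57.1 TPM) and Atf4 (354 ± 33.0 TPM) followed, and their ranges over the 3 mice overlapped. Xbp1 stood at 211 ± 12.7 TPM, while the sensor genes were lower, with Atf6 at 20.1 ± 2.96, Ern1 at 14.9 ± 1.36 and Eif2ak3 at 9.73 ± 1.10 TPM. Atf6 and Ern1 did not overlap in siCon, nor did Derl3 and the next lowest gene. Among the 3 derlins, membrane proteins of the ERAD channel, Derl2 (72.2 ± 3.21 TPM) and Derl1 (59.9 ± 2.09 TPM) made up nearly all of the siCon total.

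**Figure D2:**
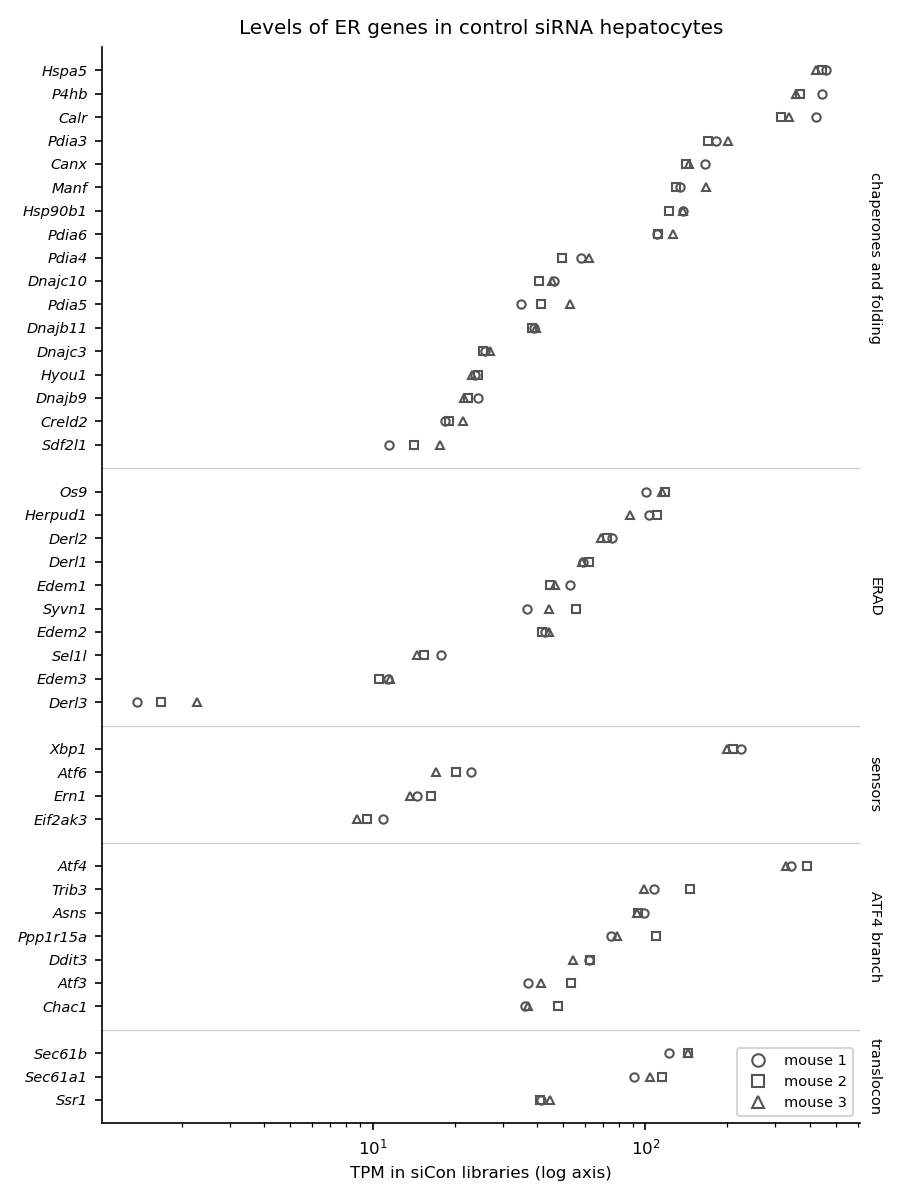
Level of each of the 41 genes in the 3 siCon libraries in TPM (log axis), grouped by branch and ordered by mean, with 1 symbol per mouse. Hspa5 is highest at 440 TPM on average and Derl3 lowest at 1.77 TPM, below every library of every other gene.

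Chaperone and folding genes rose with either siRNA. Against siCon, 9 of the 17 rose with siHnf4a, 10 with siCebpa and 12 with both, and 0 fell in any of the 3, by edgeR's quasi-likelihood test at a Benjamini-Hochberg adjusted p under 0.05 over all tested genes. That fit has no term for mouse, although the libraries are paired by mouse. Over all 41 genes the counts were 15, 12 and 19 higher and 0 lower, against a background of 7.24%, 2.94% and 6.9% of all tested genes higher and 7.29%, 1.72% and 7.13% lower in the same comparisons. The median log2 fold change of the 17 was 0.46, 0.55 and 0.63, and the median over all tested genes was 0.00 in each. In this order, siHnf4a, siCebpa and the double knockdown, the values against siCon are given throughout. The 3 comparisons share the siCon libraries, so their values are given side by side and are not independent of each other. The summed level of the 17 genes was 2204 ± 132 TPM for siCon (SD, n = 3), 3168 ± 92.8 for siHnf4a, 2747 ± 206 for siCebpa and 3306 ± 110.2 for the double knockdown.

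**Figure D3:**
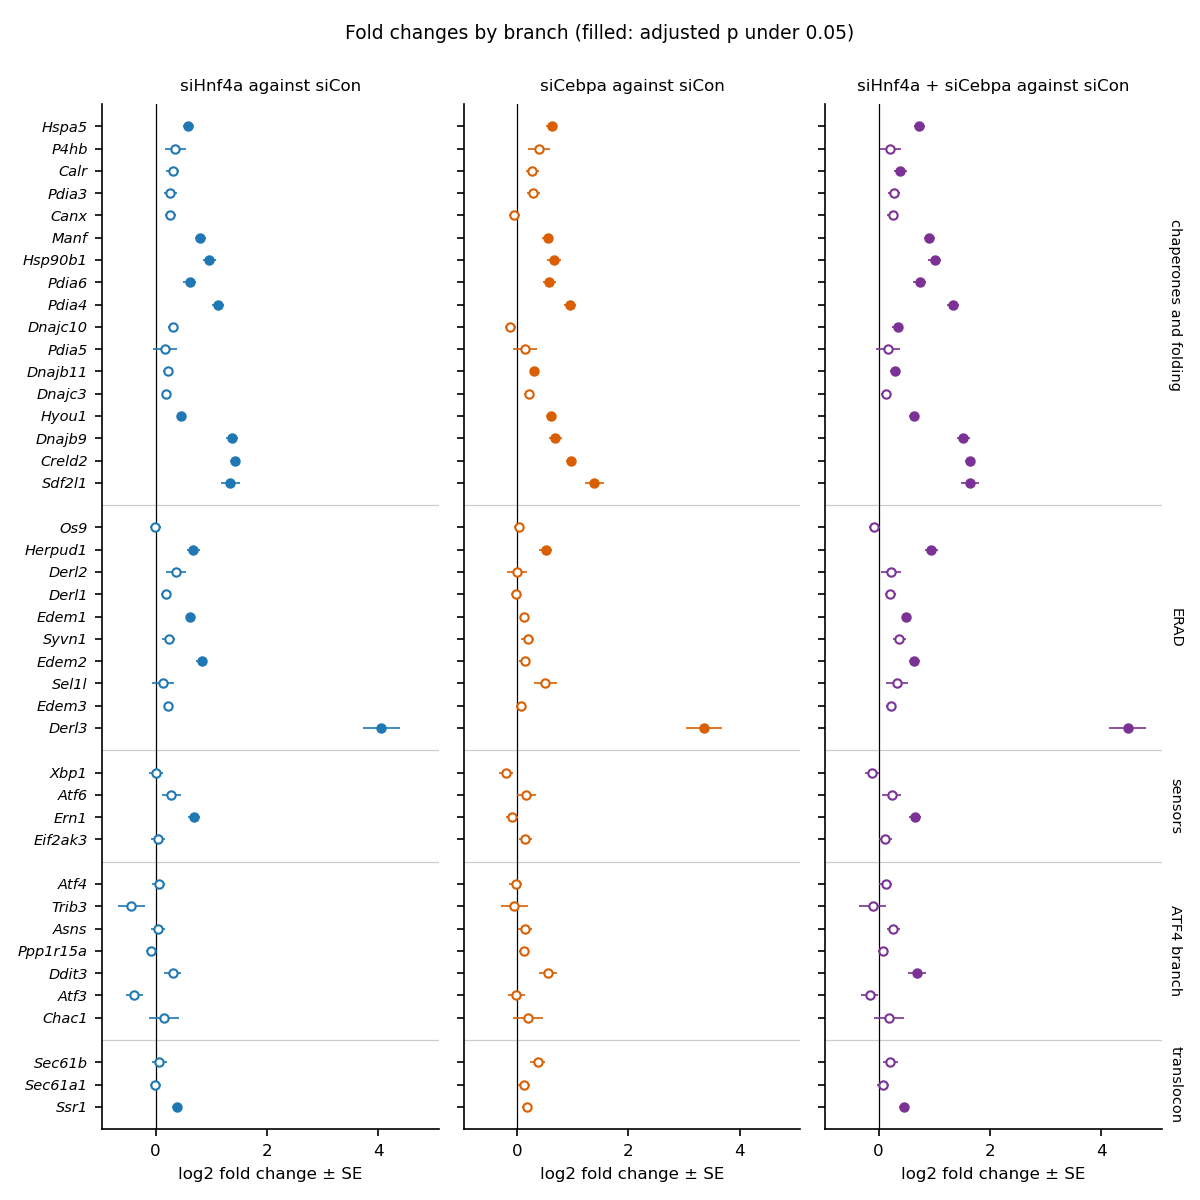
Log2 fold change against siCon for each of the 41 genes, with bars of 1 SE and 1 panel per siRNA group (siHnf4a + siCebpa is the double knockdown). Filled points passed an adjusted p of 0.05 in edgeR. Filled points lie mostly among chaperones and ERAD, and Derl3 stands at 4.05, 3.36 and 4.47.

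Hspa5 in mice 1, 2 and 3 was at 705, 649 and 635 CPM (counts scaled to a common library total, with TMM factors) in siCon, 1026, 1072 and 898 in siHnf4a, 1060, 1022 and 973 in siCebpa, and 1110, 1174 and 1027 in the double knockdown. Every siRNA library lay above every siCon library, and the 3 treated groups overlapped each other. The BiP transcript rose by 0.59 ± 0.10 (log2 ± SE, edgeR adjusted p = 0.00327) in siHnf4a, by 0.62 ± 0.10 (adjusted p = 0.00895) in siCebpa and by 0.74 ± 0.10 (adjusted p = 0.000905) in the double knockdown. Hsp90b1, the ER member of the HSP90 family, was at 246, 201 and 235 CPM in siCon, 457, 480 and 394 in siHnf4a, 412, 320 and 346 in siCebpa, and 457, 434 and 481 in the double knockdown. It rose by 0.96 ± 0.12, 0.66 ± 0.12 and 1.01 ± 0.12 with no overlap with siCon. Hyou1, which exchanges nucleotide on BiP, rose by 0.46 ± 0.08, 0.60 ± 0.08 and 0.63 ± 0.08.

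The largest rises in this branch were in small cofactors that siCon cells held at low level. Sdf2l1, an ER protein that acts with BiP and its DnaJ partners, was at 7.50, 8.95 and 11.3 CPM in siCon, 27.3, 21.2 and 21.9 in siHnf4a, 23.7, 21.9 and 26.9 in siCebpa, and 32.8, 25.4 and 28.2 in the double knockdown. All 9 siRNA libraries exceeded all 3 siCon libraries, and siHnf4a and siCebpa lay over the same range. The change was 1.34 ± 0.17 (edgeR adjusted p = 0.000532), 1.39 ± 0.17 (0.00224) and 1.64 ± 0.17 (0.000154). Creld2, a cysteine-rich ER protein linked to disulfide exchange, was at 15.4, 15.4 and 17.6 CPM in siCon, 44.9, 42.3 and 42.3 in siHnf4a, 33.0, 30.7 and 31.2 in siCebpa, and 54.2, 50.2 and 46.4 in the double knockdown. Here no group overlapped any other, and siCebpa stood between siCon and siHnf4a. It rose by 1.42 ± 0.09 (edgeR adjusted p = 1.67e-05), 0.97 ± 0.08 (0.000577) and 1.64 ± 0.09 (6.86e-06).

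Dnajb9, a DnaJ cofactor that represses IRE1 through BiP, followed the order of Creld2. It was at 38.9, 34.2 and 33.8 CPM in siCon, 95.4, 104 and 78.3 in siHnf4a, 60.9, 59.4 and 52.2 in siCebpa, and 102, 109 and 97.2 in the double knockdown. The siCebpa libraries lay above siCon and below siHnf4a without overlap. The log2 changes were 1.38 ± 0.11, 0.69 ± 0.11 and 1.52 ± 0.11. Manf, a secreted protein that binds BiP, was at 59.8, 54.1 and 69.1 CPM in siCon, 99.7, 110.4 and 109.7 in siHnf4a, 92.8, 81.4 and 93.7 in siCebpa, and 111, 113 and 121 in the double knockdown. It rose by 0.80 ± 0.10, 0.55 ± 0.10 and 0.91 ± 0.10, again without overlap with siCon, but its gene model shares exon sequence with Rbm15b on the same strand, so part of its counts may be assigned either way.

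The disulfide isomerases divided. Pdia4 was at 91.7, 74.3 and 95.6 CPM in siCon, 187, 179.7 and 201 in siHnf4a, 181, 149.6 and 175 in siCebpa, and 216, 207 and 237 in the double knockdown. It rose by 1.12 ± 0.11, 0.95 ± 0.11 and 1.33 ± 0.11, and Pdia6 rose by 0.61 ± 0.12, 0.58 ± 0.12 and 0.74 ± 0.12. The most abundant isomerase, P4hb, did not pass in any of the 3 comparisons, with 0.36 ± 0.19, 0.40 ± 0.19 and 0.21 ± 0.19, and its libraries overlapped between groups. Its spread was wide in siCebpa, where mouse 1 had 984 CPM and the others 589 and 667. Pdia3, the isomerase that works with calnexin and calreticulin (0.27 ± 0.12, 0.29 ± 0.12 and 0.28 ± 0.12), and Pdia5 (0.17 ± 0.22, 0.14 ± 0.22 and 0.17 ± 0.22) did not pass either. With mouse as a block in the fit, Pdia3 passed in all 3 comparisons (block adjusted p in edgeR of 0.0351, 0.0386 and 0.0324) and P4hb in siHnf4a (0.0494).

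The lectin chaperones that hold glycoproteins moved less. Canx (calnexin), whose promoter window holds ERSE, had 0.27 ± 0.10, -0.05 ± 0.09 and 0.25 ± 0.10 and passed in none of the 3, and with the mouse block only in siHnf4a (adjusted p = 0.0459). Calr (calreticulin) had 0.31 ± 0.12 and 0.27 ± 0.12 with the single siRNAs and rose by 0.39 ± 0.12 (edgeR adjusted p = 0.0471) in the double knockdown, and with the block also in siHnf4a (0.034). Among the remaining DnaJ partners, Dnajb11 rose in siCebpa (0.31 ± 0.08, edgeR adjusted p = 0.0455) and the double knockdown (0.29 ± 0.08, 0.0279) and had 0.22 ± 0.08 in siHnf4a (0.0803, with the block 0.0252). Dnajc10, a reductase that prepares proteins for ERAD, rose in the double knockdown alone of the 3 (0.34 ± 0.10, edgeR adjusted p = 0.0373), with 0.31 ± 0.10 in siHnf4a (0.0533, with the block 0.0221) and -0.12 ± 0.10 in siCebpa. Dnajc3, also a holder of ERSE, had 0.19 ± 0.08, 0.21 ± 0.08 and 0.13 ± 0.08 and passed in none. The calls of Calr, Dnajb11 and Dnajc10 in the double knockdown each held in 1 of 6 fits that left out 1 of the libraries compared.

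The siCebpa calls of this branch and of ERAD were less stable than those of siHnf4a. Over the 41 genes the count of 12 higher in siCebpa became 5 without siCon mouse 2, 6 without siCon mouse 3 and 7 without siCebpa mouse 3. It was 3 when siCon and siCebpa alone were fitted. Calls over all genes in siCebpa against siCon fell in these fits too, from 704 to 117, 114, 154 and 45 in the same order. Creld2, Sdf2l1, Pdia4, Hyou1 and Derl3 kept the siCebpa call in all 6 fits without 1 library. Hspa5, Dnajb9 and Manf kept it in 4 of 6, Hsp90b1 and Pdia6 in 3, Herpud1 in 2 and Dnajb11 in 1. On the TPM scale, where the median of all genes moved by -0.12 in siCebpa against siCon, 8 of the 41 were higher and Pdia6, Manf, Herpud1 and Dnajb11 no longer passed.

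Some ERAD genes rose as well. Of the 10, 4 rose with siHnf4a, 2 with siCebpa and 4 with both, where 7.24%, 2.94% and 6.9% of all genes were higher, and 0 fell, and the median log2 fold change was 0.30, 0.13 and 0.35. The summed level of the 10 was 509 ± 20.8 TPM for siCon (SD, n = 3), 690 ± 30.4 for siHnf4a, 532 ± 12.9 for siCebpa and 721 ± 23.3 for the double knockdown, with siCebpa overlapping siCon.

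Derl3 changed most of the 41 genes. This derlin, on the plus strand at chr10:75893413-75895941, was at 0.555, 1.05 and 1.49 CPM in siCon, 21.1, 17.9 and 12.3 in siHnf4a, 10.4, 11.3 and 10.0 in siCebpa, and 28.3, 23.1 and 17.3 in the double knockdown, on 14 to 711 estimated counts per library. Every siRNA library was at least several times any siCon library, siCebpa lay below siHnf4a without overlap, and in the 2 groups that received the Hnf4a siRNA mouse 1 was highest and mouse 3 lowest. Derl3 rose by 4.05 ± 0.33 (edgeR adjusted p = 4.19e-05, 16.6-fold) in siHnf4a, by 3.36 ± 0.33 (0.0011, 10.2-fold) in siCebpa and by 4.47 ± 0.33 (2.46e-05, 22.2-fold) in the double knockdown. These calls held in every fit without 1 library. In TPM it went from 1.33% of the 3 derlins together in siCon (mean of 3) to 15.2%, 12.5% and 19.1% in the siRNA groups. Derl1 (0.19 ± 0.10, -0.02 ± 0.10 and 0.21 ± 0.10) and Derl2 (0.36 ± 0.18, -0.00 ± 0.18 and 0.22 ± 0.18) did not pass. With the mouse block Derl2 passed in siHnf4a (adjusted p = 0.00853) and Derl1 in the double knockdown (0.0295).

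Derl3, Creld2 and Sdf2l1 are also abundant in plasma cells. The sum of the 12 B and plasma cell markers lay at 2.72 to 4.56 TPM for siCon, 2.91 to 7.48 for siHnf4a, 1.51 to 2.52 for siCebpa and 2.38 to 5.17 for the double knockdown. Tnfrsf17 was listed at 0 in all libraries, 9 of the 12 stayed under 1 TPM in every library, and 0 of the 3 that could be tested passed in any comparison with siCon. In siCebpa all 3 were below 0 (median -0.64), and with the mouse block 1 was lower there, where 8.11% of all genes were lower.

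Herpud1, a membrane protein that organises the ERAD ubiquitin ligase, was at 119, 123 and 102 CPM in siCon, 162, 199 and 190.2 in siHnf4a, 158, 183 and 152 in siCebpa, and 205, 215 and 243 in the double knockdown. It rose by 0.68 ± 0.11, 0.52 ± 0.11 and 0.95 ± 0.12 without overlap with siCon. The mannosidase-like proteins Edem1 and Edem2, which mark misfolded glycoproteins for disposal, set the siRNAs apart. Edem2 was at 58.5, 57.3 and 61.2 CPM in siCon, 119.7, 99.3 and 94.6 in siHnf4a, 64.4, 63.5 and 66.5 in siCebpa, and 99.9, 92.6 and 83.6 in the double knockdown. Edem1 was at 112, 112 and 117 CPM in siCon, 177, 186 and 161 in siHnf4a, 127, 123 and 122 in siCebpa, and 159.7, 162 and 159 in the double knockdown. Both were high in all 6 libraries with the Hnf4a siRNA and only a little over siCon in siCebpa. Edem2 rose by 0.83 ± 0.10 in siHnf4a and 0.64 ± 0.10 in the double knockdown and had 0.14 ± 0.10 in siCebpa (edgeR adjusted p = 0.48). Edem1 rose by 0.62 ± 0.07 and 0.50 ± 0.07 and had 0.12 ± 0.07 in siCebpa (0.35).

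The ligase itself and its partners did not pass in any of the 3 comparisons. Syvn1 (HRD1) had 0.24 ± 0.12, 0.19 ± 0.12 and 0.37 ± 0.12, and its adapter Sel1l 0.14 ± 0.20, 0.51 ± 0.20 and 0.33 ± 0.20. With the mouse block Syvn1 passed in the double knockdown (edgeR adjusted p = 0.0105), and Sel1l in siCebpa (0.00153) and the double knockdown (0.00739). Syvn1 shares exon sequence with Mrpl49 on the other strand, and whether counting used strand is not given in the sources used here. Edem3 (0.23 ± 0.08, 0.06 ± 0.08 and 0.22 ± 0.08; in siHnf4a 0.0463 with the block) and the lectin Os9 (-0.00 ± 0.10, 0.04 ± 0.10 and -0.08 ± 0.10) completed the branch.

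**Figure D4:**
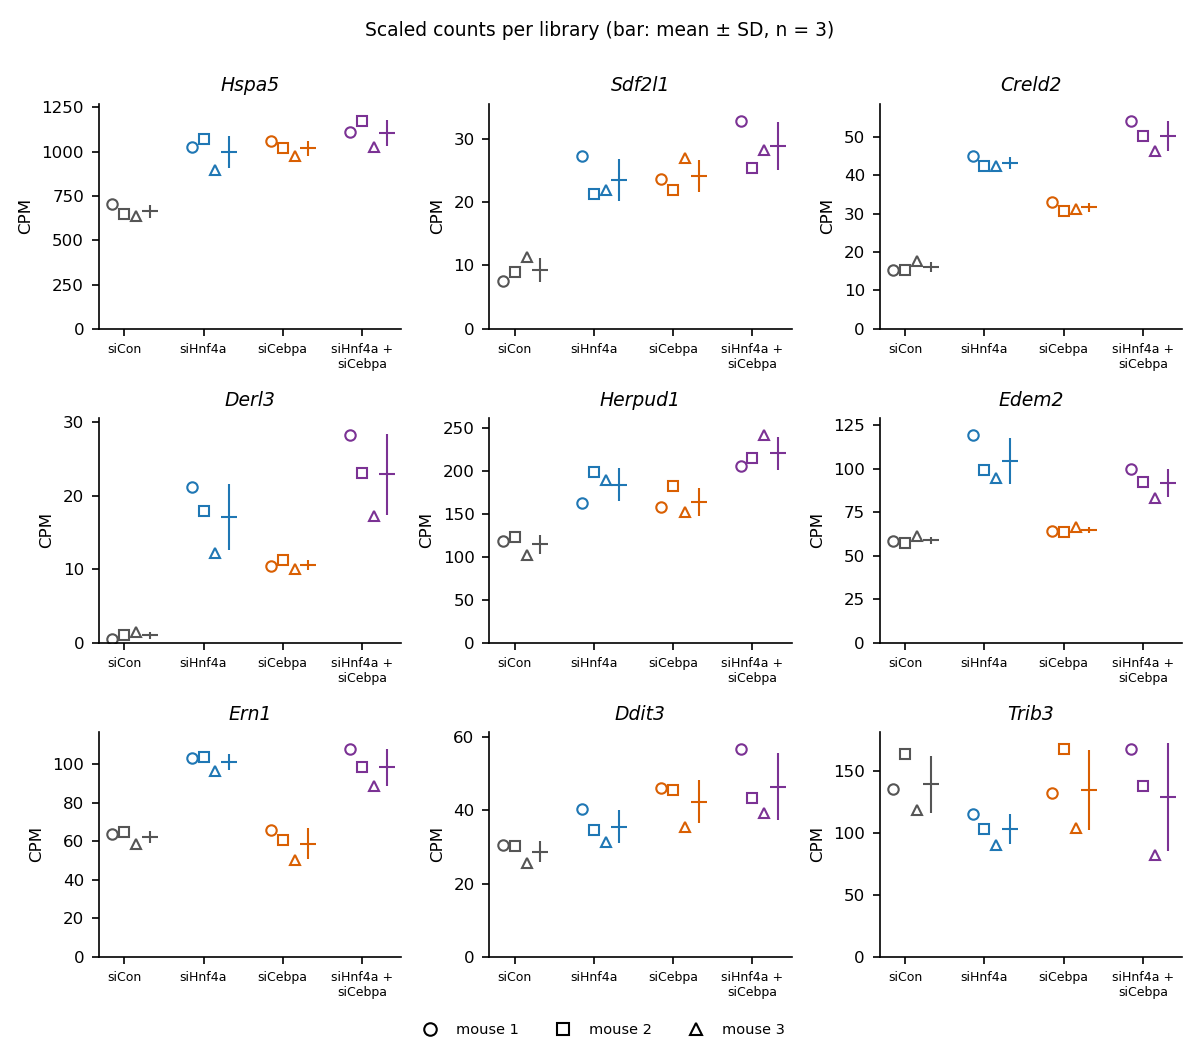
TMM-scaled CPM of 9 genes in all 12 libraries, with 1 symbol per mouse and a bar of mean ± SD (n = 3) beside each group (siHnf4a + siCebpa is the double knockdown). Hspa5, Sdf2l1, Creld2, Derl3 and Herpud1 lie above siCon in all 3 siRNA groups, Edem2 and Ern1 are high where the Hnf4a siRNA was given, and Trib3 overlaps between siCon, siCebpa and the double knockdown.

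Of the 4 sensors and their factors, Ern1 alone passed in a comparison with siCon. Ern1, which encodes the kinase and nuclease IRE1α, was at 63.5, 64.7 and 58.8 CPM in siCon, 103, 104 and 96.5 in siHnf4a, 65.5, 60.5 and 50.1 in siCebpa, and 108, 98.3 and 88.6 in the double knockdown. The 6 libraries with the Hnf4a siRNA lay above the other 6. Ern1 rose by 0.70 ± 0.11 (edgeR adjusted p = 0.00175) in siHnf4a and 0.66 ± 0.11 (0.00238) in the double knockdown and had -0.09 ± 0.11 (0.708) in siCebpa. Its substrate Xbp1 was at 301, 271 and 262 CPM in siCon, 300.3, 292 and 249 in siHnf4a, 246, 251 and 227 in siCebpa, and 283, 279 and 208 in the double knockdown. The gene-level values were 0.01 ± 0.12, -0.20 ± 0.13 and -0.11 ± 0.12, and none passed. Atf6 had 0.28 ± 0.17, 0.17 ± 0.17 and 0.24 ± 0.17, and passed with the mouse block in siHnf4a (adjusted p = 0.0204) and the double knockdown (0.0391). Eif2ak3, the PERK gene, had 0.05 ± 0.12, 0.15 ± 0.12 and 0.12 ± 0.12.

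The ATF4 branch did not follow the chaperones. Of its 7 genes 0 passed with siHnf4a, 0 with siCebpa and 1, Ddit3, with both, and the median log2 fold change was 0.04, 0.13 and 0.13. In either direction 14.53%, 4.665% and 14.03% of all genes passed. With the mouse block, which takes account of the pairing, 1, 1 and 1 of the 7 were higher and 1, 0 and 0 lower. Over all genes 14.5%, 8.73% and 13.8% were then higher and 15.5%, 8.11% and 15.6% lower. At an unadjusted p under 0.05 edgeR gave 1 of the 7 in each comparison (Atf3, Ddit3 and Ddit3). Of all 15090 tested genes 4336, 3063 and 4263 were under that threshold. DESeq2 called 0, 1 and 1 of the 7, the 1 being Ddit3, and 18.39%, 8.787% and 18.07% of all genes. Atf4 itself had 0.06 ± 0.12 (95% interval -0.19 to 0.32), -0.03 ± 0.12 (-0.28 to 0.23) and 0.13 ± 0.12 (-0.12 to 0.39). Its levels of 374, 412 and 353 CPM in siCon overlapped those of every other group. ATF4 is controlled at translation, which these counts do not measure.

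Ddit3, which encodes the stress factor CHOP, was at 30.6, 30.2 and 25.5 CPM in siCon, 40.5, 34.7 and 31.5 in siHnf4a, 46.1, 45.5 and 35.5 in siCebpa, and 56.9, 43.5 and 39.2 in the double knockdown. Each siRNA group lay above siCon without overlap, and in all 4 groups mouse 3 was lowest. The change was 0.31 ± 0.16 (edgeR adjusted p = 0.228), 0.56 ± 0.16 (0.0724) and 0.69 ± 0.16 (0.0146), and with mouse as a block Ddit3 passed in all 3 (0.0183, 0.00182 and 0.000184). The double knockdown call was lost without siCon mouse 3 or without mouse 1 of the double knockdown, with adjusted p up to 0.0653 over the alternatives. Ddit3 overlaps exons of Mars on the other strand.

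The targets downstream did not pass. Trib3, a pseudokinase induced by ATF4 and CHOP, was at 136, 164 and 118 CPM in siCon, 115, 104 and 90.9 in siHnf4a, 132, 168 and 104 in siCebpa, and 168, 138 and 82.1 in the double knockdown. All 3 siHnf4a libraries lay below siCon (-0.43 ± 0.25, edgeR adjusted p = 0.283, with the block 0.0524), and the double knockdown spread over the whole range (-0.11 ± 0.25). Atf3, a repressor of the same family, was at 47.6, 65.6 and 52.0 CPM in siCon and 37.7, 45.1 and 44.0 in siHnf4a, with -0.38 ± 0.15, -0.02 ± 0.15 and -0.16 ± 0.15. It fell in siHnf4a only with the mouse block (-0.37 ± 0.08, edgeR adjusted p = 0.00567). Chac1, which breaks down glutathione (0.15 ± 0.27, 0.19 ± 0.27 and 0.19 ± 0.27), Asns, the asparagine synthetase gene (0.04 ± 0.12, 0.14 ± 0.12 and 0.27 ± 0.12), and Ppp1r15a, the phosphatase subunit GADD34 (-0.09 ± 0.09, 0.13 ± 0.09 and 0.07 ± 0.09), did not pass, and their libraries overlapped siCon in every group. The intervals of Chac1 reach from -0.44 to 0.75 in siHnf4a, which includes the change measured for Hspa5.

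Of the 3 translocon genes, Ssr1, a subunit of the complex that helps chains enter the ER, rose by 0.38 ± 0.10 (edgeR adjusted p = 0.0229) in siHnf4a and 0.46 ± 0.10 (0.0103) in the double knockdown. It was at 128, 117 and 136 CPM in siCon, 163, 165 and 168 in siHnf4a, 133, 144 and 154 in siCebpa, and 153, 185 and 184 in the double knockdown. The siHnf4a call was lost without siCon mouse 2, siHnf4a mouse 2 or siHnf4a mouse 3 and on the TPM scale, with adjusted p up to 0.0773. The channel subunits Sec61a1 (-0.00 ± 0.10, 0.12 ± 0.10 and 0.08 ± 0.10) and Sec61b (0.07 ± 0.14, 0.37 ± 0.14 and 0.21 ± 0.14) did not pass, and Sec61b did in siCebpa with the block (adjusted p = 0.0156).

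With the mouse block, the counts over all 41 genes were 25 higher and 1 lower in siHnf4a, 16 and 0 in siCebpa and 24 and 0 in the double knockdown, against 14.5%, 8.73% and 13.8% of all genes higher and 15.5%, 8.11% and 15.6% lower. Under the block 15 of the 17 chaperones were higher in siHnf4a, and of the 7 ATF4 genes 1 was higher (Ddit3) and 1 lower (Atf3).

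The single knockdowns were also compared directly, and a gene that did not pass there may still differ between them. In siHnf4a against siCebpa 7 of the 41 were higher and 0 lower, where 7.51% of all genes were higher and 8.67% lower. The 7 were Ern1 (0.78 ± 0.11, edgeR adjusted p = 0.000949), Edem2 (0.69 ± 0.10, 0.00115), Dnajb9 (0.69 ± 0.11, 0.00248), Edem1 (0.49 ± 0.07, 0.00121), Creld2 (0.45 ± 0.08, 0.00531), Dnajc10 (0.43 ± 0.10, 0.0129) and Canx (0.32 ± 0.10, 0.045). The calls of Canx and Dnajc10 held in 1 and 3 of 6 fits without 1 library, and the other 5 held in all 6. Hspa5 did not differ detectably, with a difference of -0.03 and a 95% interval from -0.25 to 0.19, and Sdf2l1 had -0.04 (-0.40 to 0.31). Derl3 had 0.69 ± 0.28 (edgeR adjusted p = 0.116) although its 3 siHnf4a libraries were all above its 3 siCebpa libraries, and it passed with the block (0.0452). The block gave 12 higher and 5 lower, against 14.9% and 16.3% of all genes. The 5 lower were Atf3 (-0.36 ± 0.08), Ppp1r15a (-0.21 ± 0.07), Ddit3 (-0.25 ± 0.08), Sel1l (-0.38 ± 0.07) and Sec61b (-0.29 ± 0.08), of which 3 belong to the ATF4 branch. On the TPM scale, which moved the median of all genes by 0.10 in this contrast, 10 were higher and 0 lower.

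**Figure D5:**
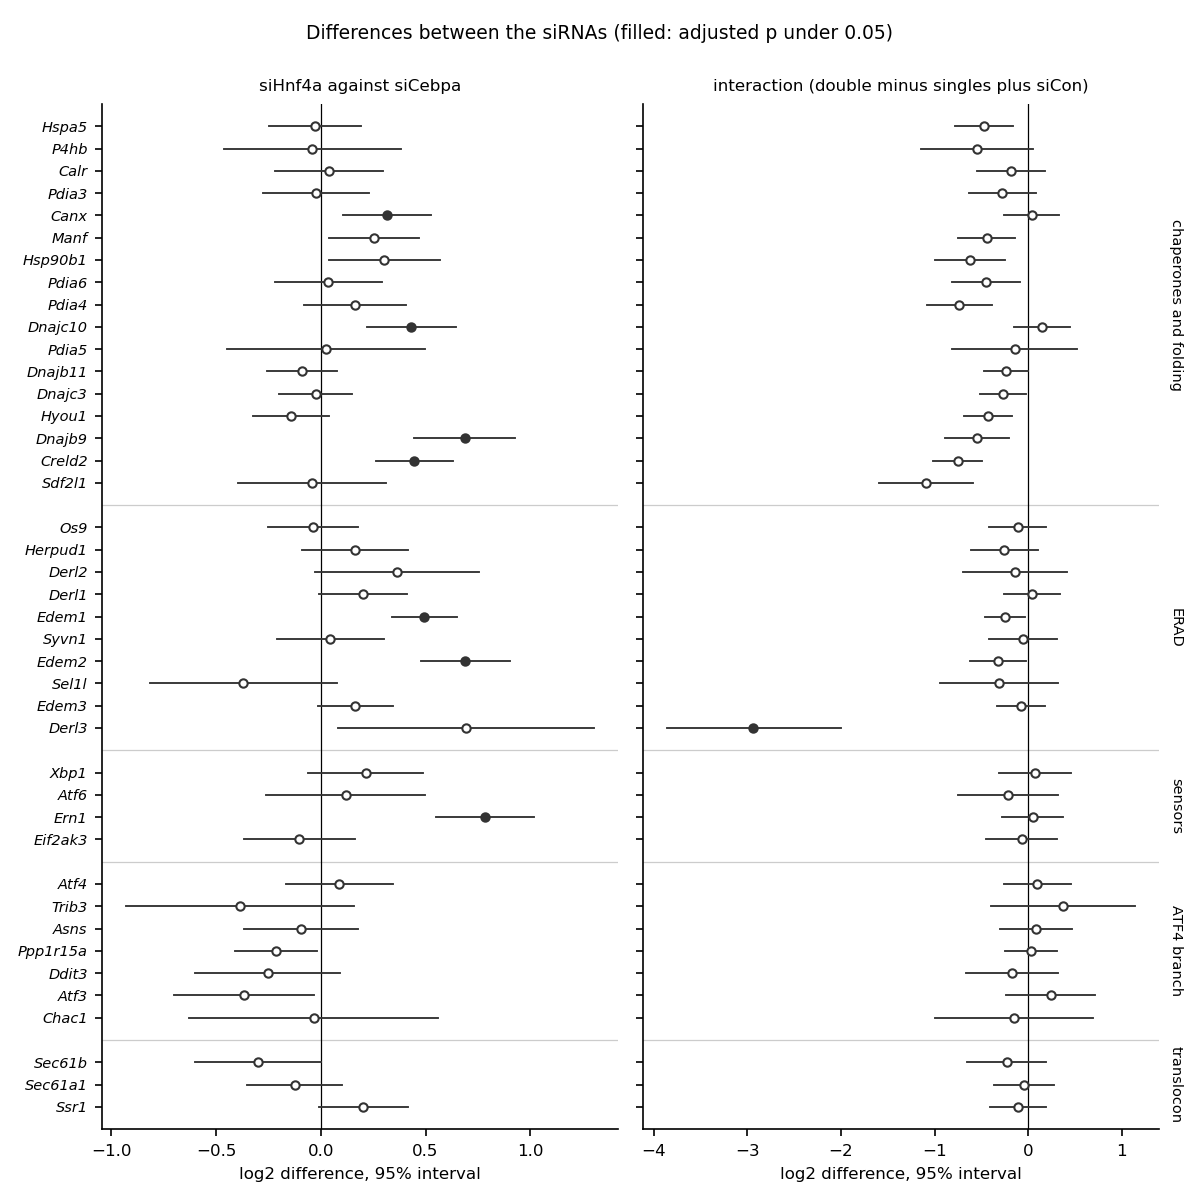
Log2 difference with its 95% interval for each of the 41 genes in siHnf4a against siCebpa (left) and in the interaction, the double knockdown minus both single knockdowns plus siCon (right); filled points passed an adjusted p of 0.05. On the left 7 genes are filled, all to the right of 0, and on the right Derl3 alone, at -2.93, while 31 of the 41 lie below 0.

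Against siCebpa, the double knockdown had 10 of 41 genes higher and 0 lower, where 6.51% of all genes were higher and 6.47% lower. In the double knockdown against siCebpa these were Derl3 (1.12 ± 0.28, edgeR adjusted p = 0.0254), Dnajb9 (0.83 ± 0.11), Ern1 (0.74 ± 0.11), Creld2 (0.67 ± 0.08), Edem2 (0.51 ± 0.10), Dnajc10 (0.46 ± 0.10), Herpud1 (0.43 ± 0.11), Pdia4 (0.38 ± 0.11), Edem1 (0.37 ± 0.07) and Manf (0.36 ± 0.10). The count was 6 without siCebpa mouse 3, and also 6 without mouse 2 of the double knockdown. Calls over all genes fell in these fits from 1959 to 1068 and 1053. Adding the Cebpa siRNA to the Hnf4a siRNA changed 0 of the 41, where 0.00663% of all genes passed, that is Cebpa itself. Cebpa differed by -1.19 ± 0.12 in that contrast, from 214 ± 17.0 to 94.2 ± 13.1 CPM (SD, n = 3), against -2.68 ± 0.13 in siCebpa against siCon, so the Cebpa transcript was lowered less there. Over all genes 373 had an unadjusted p under 0.05 there, and DESeq2 called 4 genes and 0 of the 41. The values of the 41 in that contrast ran from -0.18 for Edem2 to 0.42 for Derl3, with a median of 0.08.

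For most of these genes, in the fit of counts, the log2 change in the double knockdown stood below the sum of the 2 single log2 changes. The interaction, which is the log2 change with both siRNAs less the 2 single changes, was below 0 for 31 of the 41 genes, with a median of -0.19 against -0.01 for all tested genes. On the TPM scale (pseudocount 1) 17 of the 41 were above 0, and the median was -0.05 against 0.12 for all genes. Derl3 alone passed (-2.93 ± 0.42, edgeR adjusted p = 0.0313), where 0.0331% of all genes were lower and 0.053% higher. The Derl3 call held without siCon mouse 1 or siHnf4a mouse 3 and was lost without any one of the other 10 libraries, with adjusted p up to 0.154, while the value stayed between -3.29 and -2.63 over these 12 fits. Among the chaperones Sdf2l1 had -1.09 ± 0.23 (edgeR adjusted p = 0.134), Creld2 -0.75 ± 0.12 (0.0541), Pdia4 -0.73 ± 0.16 (0.144) and Hspa5 -0.47 ± 0.14 (0.272). With mouse as a block 9 of the 41 passed below 0, against 1.83% of all genes lower. They were Derl3, Sdf2l1, Creld2, Pdia4, Hsp90b1, Dnajb9, Hspa5, Pdia6 and Hyou1, that is 8 chaperones and 1 ERAD gene, and DESeq2 called 6. The ATF4 branch had a median of 0.09 and 0 of 7 calls with or without the block. Cebpa was 1.65 higher in the double knockdown than in siCebpa, and its part in these interaction values was not tested.

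Other genes of the pathway, listed by role, were tested in the same fit. The background for the counts that follow is 7.24%, 2.94% and 6.9% of all genes higher and 7.29%, 1.72% and 7.13% lower with siHnf4a, siCebpa and both, and with the mouse block 14.5%, 8.73% and 13.8% higher and 15.5%, 8.11% and 15.6% lower. Of 25 further ER folding enzymes and chaperones, 4 rose and 1 fell with siHnf4a, 1 rose with siCebpa, and 4 rose and 1 fell with both. With the block 10, 7 and 9 were higher and 2, 1 and 3 lower. Nucb2, a calcium-binding protein, rose by 1.06 ± 0.27 in siHnf4a and 1.25 ± 0.27 in the double knockdown, Dnajc1 by 0.59 ± 0.08 and 0.30 ± 0.08, and the prolyl isomerase Fkbp11 by 0.81 ± 0.19 in siCebpa, while Ganab, a glucosidase II subunit, fell with siHnf4a (-0.42) and with both (-0.38). Of 20 further ERAD factors 2 rose and 1 fell with siHnf4a, 1 rose with siCebpa, and 2 rose and 1 fell with both. With the block 5, 4 and 8 were higher and 2, 1 and 1 lower. Without the block these counts lie within 1 gene of the background share. The ubiquitin ligase gene March6 was the one that fell (-0.48 and -0.68).

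Of 26 further targets of ATF4 and the integrated stress response, 3 rose and 2 fell with siHnf4a, 2 rose with siCebpa, and 3 rose and 1 fell with both. With the block 4, 5 and 6 were higher and 5, 0 and 3 lower. Slc7a11, the cystine transporter gene that also answers to NRF2, rose by 1.71 ± 0.27, 1.12 ± 0.27 and 1.94 ± 0.27, and the stress cytokine gene Gdf15 by 0.86 ± 0.16 in siHnf4a and 1.00 ± 0.16 in the double knockdown. Psat1, an enzyme of serine synthesis, fell with siHnf4a (-1.02) and with both (-0.72), and Phgdh, of the same pathway, with siHnf4a (-0.83). Psph, its last enzyme, did not pass (-0.08 ± 0.16, 0.21 ± 0.16 and 0.04 ± 0.16). Of 19 eIF2 kinases and regulators of the unfolded protein response, 2 rose and 1 fell with siHnf4a, 1 fell with siCebpa, and 2 rose and 2 fell with both. With the block 3 were higher in each comparison and 3, 2 and 2 lower. Creb3l3, a liver factor of the ATF6 type held in the ER membrane, fell in all 3 (-2.30, -0.86 and -3.12). Yod1, a deubiquitinase of ERAD, rose by 0.84 ± 0.11 and 0.80 ± 0.11 and Wfs1, an ER membrane protein, by 0.53 ± 0.11 and 0.66 ± 0.11 in siHnf4a and the double knockdown. Of 26 genes of translocation, signal peptide removal and N-glycosylation, 2 rose and 1 fell with siHnf4a, 3 rose and 1 fell with siCebpa and 3 rose with both, none by more than 0.59. With the block 6, 8 and 7 were higher and 2, 1 and 0 lower.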

How the data were processed

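Per the labels, total RNA of primary mouse hepatocytes was extracted with TRIzol and sequenced with BGISEQ-500 protocols. For each of 12 libraries the authors deposited expected counts (estimated read counts per gene, not normalised) and TPM values. The build GRCm38.p6 and the tools kallisto 0.4.6 and Trim Galore 0.6.4 are named per the submitters' processing notes; annotation and strand setting: not given in the sources used here. Identifiers were paired with symbols through GENCODE M21. In 34 of the 41 genes at least 1 library held a fractional count (tolerance 0.001); the cause was not tested. Libraries held 22453445 to 25008195 counts, and replicates differed by more than counting error.

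Counts were rounded and tested in R 4.3.3 with edgeR 4.0.16 (TMM, filterByExpr over the 4 groups, quasi-likelihood model with 1 mean per group, 8 residual degrees of freedom, two-sided contrasts, Benjamini-Hochberg over 15090 genes, threshold 0.05). "Rose", "fell" and "passed" refer to this test; values after ± are SEs for log2 changes and SDs for levels, and fitted log2 changes include edgeR's prior count. Values named with a block come from the same fit with mouse as a term (6 residual degrees of freedom). The mice pair the libraries by design: the 18 same-mouse residual correlations ran from 0.16 to 0.68, each library's highest being with its own mouse in 12 of 12. Other alternatives were RLE factors, all genes with 1 count or more, a stricter filter (3 libraries at 1 CPM), DESeq2 1.42.0, the compared groups alone, limma 3.58.1 on log2 TPM plus 1 or 0.1 (genes of at least 1 TPM in 3 libraries; fold changes on that scale are smaller for low genes) and leaving out each library. The test was tested on simulated data. Motifs and figures used Python 3.11.15 with numpy 2.4.6, pandas 2.3.3 and matplotlib 3.10.9.

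The 41 genes, the other lists and the branches were chosen with earlier results of these data known. Per-library values are given for genes that passed against siCon or on which a statement turns; of other lists, the largest changes that passed, at most 4 per list and comparison.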

Additional observations from a re-analysis of the deposited data

Results flagged for a closer look

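The interaction of Derl3 (-2.93 ± 0.42 on the log2 scale, edgeR adjusted p = 0.0313) was marked because it passed. It tests whether the log2 change with both siRNAs differs from the sum of the single changes. The call was lost in most fits that left out a single library. Derl3 differed by 4.05 ± 0.33 in siHnf4a against siCon and by 1.12 ± 0.28 in the double knockdown against siCebpa. It differed by 3.36 ± 0.33 in siCebpa against siCon. In the double knockdown against siHnf4a the difference of 0.42 ± 0.27 did not pass. The Cebpa transcript was itself higher in the double knockdown than in siCebpa. These differences therefore do not give the effect of a single siRNA with the other target held equally low. The part of Cebpa in the interaction was not tested. The siCon level of Derl3 is low, 0.555 to 1.49 CPM, and each comparison of an siRNA with siCon uses those same 3 libraries.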

How the results depend on the processing

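Of 4223 values of the 41 genes under the alternatives, 4029 kept their side of the threshold and 0 reversed a call. On leaving out 1 library 77 calls were lost and 11 gained, and under other settings 37 were lost and 69 gained. Values without a call changed sign by over 1 SE 54 times on the TPM scale, 12 times without 1 library and 0 times otherwise. All values there, with or without a call, numbered 574, 1968 and 1681. With mouse as a replicate block, members higher and lower were 25 and 1 in siHnf4a against siCon, 12 and 5 in siHnf4a against siCebpa, and members lower in the interaction 9 (6 with DESeq2); the block raised calls over all genes from 2193 to 4533 in siHnf4a, 704 to 2542 in siCebpa, 2117 to 4448 in the double knockdown, 1959 to 4121 in the double knockdown against siCebpa, 2442 to 4712 in siHnf4a against siCebpa and 13 to 576 in the interaction. With the compared groups alone, members higher were 3 for siCebpa, and 6 for the double knockdown against siCebpa, with 45, 841 and, in siHnf4a against siCebpa, 1322 calls over all genes; fewer libraries then estimate the spread. All-gene calls in siCebpa were 398 without a filter, 1326 with DESeq2, and 441 and 440 with TPM plus 1 and 0.1; in the interaction 25 without a filter and 235 with DESeq2. In the double knockdown against siHnf4a they were 1, then 2 without a filter, 4 with DESeq2, 0 with these groups alone and 2 with TPM plus 0.1; the cause was not tested. On the TPM scale with a pseudocount of 1, the share of calls that were higher was 21.8% in siCebpa (63.1% on counts), 77.8% in the double knockdown against siCebpa (50.2%) and 77.2% in siHnf4a against siCebpa (46.4%). Leaving out 1 library gave members higher of 14 to 16 (siHnf4a), 5 to 12 (siCebpa), 15 to 18 (double knockdown), 6 to 11 (double knockdown against siCebpa) and 5 to 8, with 0 to 1 lower (siHnf4a against siCebpa), and 0 to 1 lower in the interaction; over all genes 1120 to 2141, 114 to 796, 1210 to 2043, 1053 to 2126, 1131 to 2880 and 0 to 17, and 0 to 1 in the double knockdown against siHnf4a. Depth limits Derl3 most, at 14 counts in its lowest library.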

Other observations

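Outside the ER, cytosolic heat shock genes and ER-Golgi carriers were measured in the same fit. Of 13 cytosolic heat shock genes 4 rose with siHnf4a, 3 with siCebpa and 5 with both siRNAs, and 0 fell (edgeR adjusted p under 0.05), where 7.24%, 2.94% and 6.9% of all genes were higher. With mouse as a block 4, 5 and 5 were higher and 1, 0 and 1 lower. With that block 14.5%, 8.73% and 13.8% of all genes were higher and 15.5%, 8.11% and 15.6% lower. Hspb1, the small heat shock protein gene, rose by 0.42 ± 0.13, 0.59 ± 0.13 and 0.77 ± 0.13 from a siCon mean of 371 CPM, and the co-chaperone gene Bag3 by 0.44 ± 0.11 in siHnf4a and 0.50 ± 0.11 in the double knockdown. Hspa1a rose by 1.70 ± 0.41, 2.10 ± 0.41 and 2.53 ± 0.41 from a siCon mean of 1.95 CPM, but it and Hspa1b are near-identical copies between which estimated counts may be split. Of 25 genes of COPII and ER-Golgi transport 0 rose in the 3 comparisons and 3, 2 and 3 fell, where 7.29%, 1.72% and 7.13% of all genes were lower. With the block, whose shares over all genes are given above, 3, 1 and 0 were higher and 5, 4 and 4 lower. Sec13, a coat subunit, fell with siHnf4a (-0.95) and with both (-0.92), as did Sec16a, which organises ER exit sites (-0.58 and -0.58), and Kdelr2, a receptor that returns chaperones to the ER, fell in all 3 (-0.34, -0.55 and -0.33). Tmed9, a cargo receptor of the early secretory pathway, fell in siCebpa (-0.61), where its mean was 65.0 CPM against 99.0 in siCon and 112 in the double knockdown.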
